A study of Mus musculus with 12 samples.

Results

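The genes described here are those of the cytosolic translation machinery that read an mRNA into protein: the eukaryotic initiation factors (eIF), the elongation factors (eEF) and the aminoacyl-tRNA synthetases. They were chosen by name from the protein-coding genes of GENCODE for mouse build GRCm38, as every symbol that starts with Eif or Eef and a digit apart from Eif2ak2, Eif4ebp1, Eif2s3x and Eif2s3y, together with 20 cytosolic synthetases. The rule gave 84 genes, 64 factors and 20 synthetases. Of these, 81 were among the 12866 genes listed for all 12 libraries, and 80 were among the 11509 genes tested. Eif4e1b, Eif4ebp3 and Eef1akmt3 were not listed in all files, and Eif3a, the largest subunit of eIF3, was listed at only 0.0975 to 1.69 FPKM and was not tested.

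Translation starts when eIF2 carries the initiator tRNA to the small ribosomal subunit, when eIF4 factors bind the capped end of the mRNA and unwind it, and when eIF1, eIF1A and eIF5 settle the start codon. Elongation factor eEF1A then delivers each charged tRNA to the ribosome and eEF2 moves the ribosome on by a codon, while the synthetases load each tRNA with its amino acid. Kinases that phosphorylate eIF2 slow initiation under stress and at the same time favour translation of the transcription factor ATF4, whose targets include synthetase genes. In the heart, eEF1A exists in a widespread form, eEF1A1, and in a form of adult muscle and neurons, eEF1A2.

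Hearts of C57BL/6 wild-type mice were taken in 3 groups of 4. LPS+XJDHT mice received lipopolysaccharide, the endotoxin of Gram-negative bacteria, at 10 mg/kg with XJDHT at 50 mg/kg per day, LPS mice received the same LPS dose, and Control mice received saline, all over 3 days. Total RNA depleted of ribosomal RNA was sequenced, and the values are FPKM, fragments scaled by transcript length and library depth, here summed per gene over its annotated transcripts. The libraries held 73.8 to 77.8 M fragments (M, mega), and values in the text follow the order of replicates 1 to 4 of each group.

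Beside these genes, the make-up of the tissue RNA differed between groups. The summed level of 9 listed cardiomyocyte markers was 6617 to 10151 FPKM in LPS+XJDHT libraries and 8095.5 to 9862 FPKM in LPS libraries, against 16812 to 18768 FPKM in Control libraries. The sum of 6 listed neutrophil markers was 72.9 to 149 FPKM with LPS+XJDHT and 77.0 to 115 FPKM with LPS, against 1.15 to 2.68 FPKM in Control. Of 8 fibroblast markers 4 rose and 1 fell with LPS, and their sum was 698 to 1090.1 FPKM with LPS+XJDHT and 781 to 1028 FPKM with LPS, against 433 to 539 FPKM in Control, and that of 5 erythroid markers was 125 to 253 FPKM with LPS+XJDHT and 238 to 803 FPKM with LPS, against 1275 to 1379 FPKM in Control. For 8 endothelial markers, of which 1 rose and 0 fell with LPS, the sum was 838 to 1073 FPKM with LPS+XJDHT and 780 to 1121 FPKM with LPS, against 630 to 727 FPKM in Control. For 9 macrophage and monocyte markers, of which 2 rose and 0 fell with LPS, it was 149 to 249 FPKM with LPS+XJDHT and 134 to 345 FPKM with LPS, against 131 to 204 FPKM in Control, with overlap. For 12 listed small intestine markers the sum was 3.21 to 4.04 FPKM with LPS+XJDHT, 23.9 to 33.2 FPKM with LPS and 1.68 to 2.03 FPKM in Control. Of the 10 tested among them 9 rose and 0 fell with LPS. Of 12 T, B and NK cell markers, 0 were listed in all files. LPS+XJDHT replicate 2 held 0.00658 FPKM of the Y-linked genes Ddx3y, Kdm5d and Uty together, against 7.82 to 29.3 FPKM in the other 11 libraries. In bulk tissue, fewer cells of a type and less RNA per cell cannot be told apart, and the part of these shifts in the results below was not tested.

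The promoters were searched for the response element through which C/EBP and ATF4 proteins are known to act on synthetase genes, TGATGNAA on either strand, and the synthetase stretches that hold it are shown since the results below are read beside them. RefSeq windows of 250 bases before to 50 bases after a gene's start (GRCm38.p6) were at hand for 62 members, 13 of them synthetases, in 77 windows. The element stood in 5 of the 13 synthetases with a window and in 6 of the 77 member windows (7.79%), against 3.97% of all 32851 windows. In 63 of the 77 windows the bases after the start were found unbroken in a GENCODE transcript of the same gene and strand. These 63 held 5 of the 6 windows with the element. The Gars window was not among them. The annotated Gars gene starts inside that window, at 55038007, just past the shown stretch with the element. The stretches that hold it, with the element in capitals, lie at chr8:111033704-111033763 (plus strand) for Aars, chr6:55037945-55038004 (plus) for Gars, chr13:49682111-49682154 (plus) for Iars, chr15:11399640-11399699 (minus) for Tars and chr4:129189880-129189927 (plus) for Yars.
Aars: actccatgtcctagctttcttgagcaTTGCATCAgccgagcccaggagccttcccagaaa
Gars: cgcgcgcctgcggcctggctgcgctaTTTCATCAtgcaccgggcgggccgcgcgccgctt
Iars: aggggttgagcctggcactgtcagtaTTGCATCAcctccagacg
Tars: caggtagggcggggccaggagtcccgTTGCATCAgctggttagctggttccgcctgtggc
Yars: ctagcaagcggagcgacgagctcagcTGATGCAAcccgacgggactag
The remaining window with the element belonged to Eef2k, and Aars held a second copy inside its first transcribed bases. The elements of Iars and Yars also lay after the RefSeq start. Those of Gars and Tars and the Aars copy shown lay before it. In GENCODE, however, the Aars gene starts at 111033144, so the Aars copy shown lies inside the annotated gene. These are matches of letters, and the binding of a factor was not measured.

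The E-box CACGTG, the letters bound by MYC and related proteins and the same on both strands, stood in 19 of the 77 member windows (24.7%), against 7.15% of all windows, and in 17 of the 63 windows matched to a transcript. It was present for Eif4a1 and had 0 matches in the window of its paralog Eif4a2. The members with an E-box that rose with LPS in the results below were Eef2, Eif3f, Eif3k, Eif4a1, Eif4h, Eif5a, Eif5a2, Iars and Tars. Those with an E-box that did not rise were Aars, Eef1akmt4, Eef2k, Eif1b, Eif4e, Eif4g1 and Farsb, and Eif3a was not tested. Here too only letters were matched, and a link between the E-box and the change with LPS was not tested. The stretches shown, with the E-box in capitals, are chr11:69672543-69672662 (minus strand) for Eif4a1 and the same distance from the start of Eif4a2, chr16:23107229-23107348 (plus strand).
Eif4a1: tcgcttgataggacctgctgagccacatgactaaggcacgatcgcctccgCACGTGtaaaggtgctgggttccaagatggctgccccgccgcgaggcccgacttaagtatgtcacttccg
Eif4a2: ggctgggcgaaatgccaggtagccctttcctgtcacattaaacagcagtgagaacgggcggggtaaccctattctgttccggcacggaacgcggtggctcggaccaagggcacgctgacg

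Most tested translation genes were higher after LPS. In LPS against Control, 46 of 80 members rose and 2 fell. The summed level of the 81 listed members was 4220.5 to 4461 FPKM in LPS+XJDHT libraries and 4083 to 4530.5 FPKM in LPS libraries, against 2670.2 to 2820.5 FPKM in Control libraries. The members' log2 fold changes in LPS against Control had a median of 0.44. Of the 11509 tested genes 26.6% rose and 12% fell, and their median was 0.16. Here and below, the fold change is of FPKM + 1 with its standard error (SE), and "rose" and "fell" mean a Benjamini-Hochberg adjusted p below 0.05 over all tested genes by limma. In 44 members every LPS library was above every Control library, a pattern seen in 25.3% of all tested genes. Most of the rises were below 2-fold, and 6 of the 46 reached 2-fold. Scaling the libraries by median ratios instead of by total fragments lowered the median of all genes to 0.0046 and that of the members to 0.25; 35 members then rose and 2 fell, against 18.5% of all genes rising and 18.5% falling. Eef1g, Eif3k, Eif4a3, Dars and Lars, which rose otherwise, lost their call under that scaling alone.

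**Figure D1:**
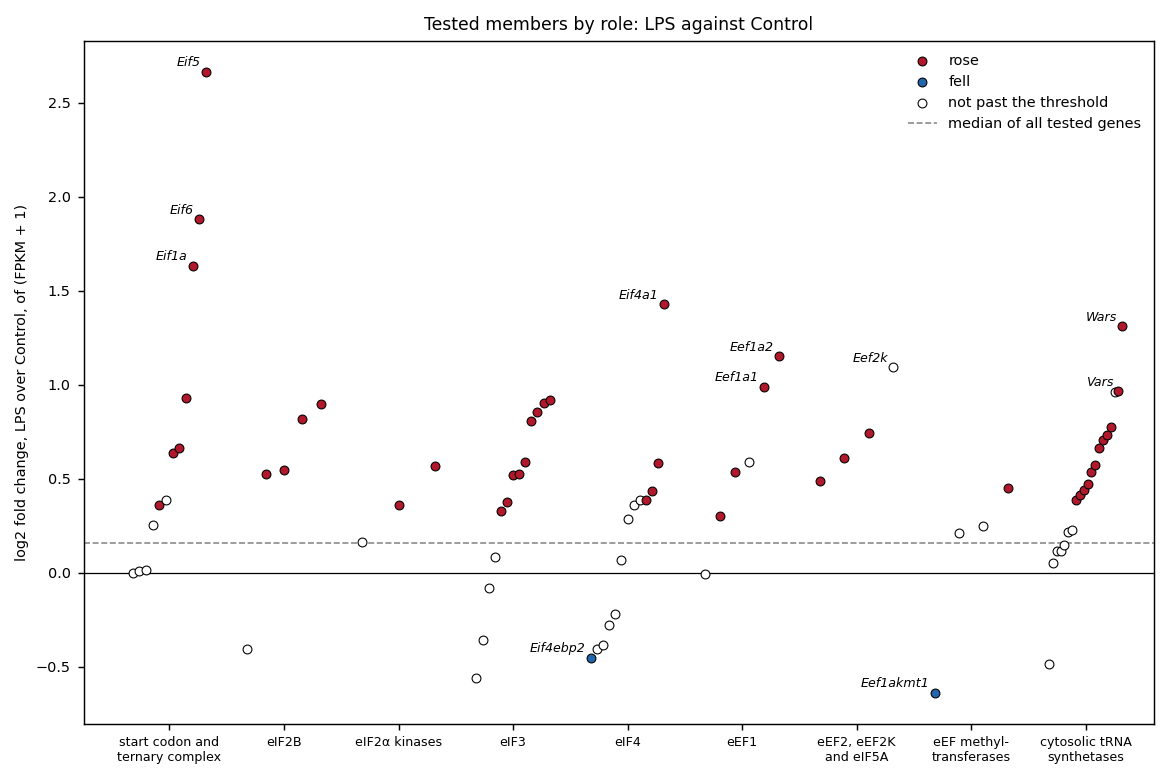
Each point is a tested member, placed by its role on the horizontal axis and by its log2 fold change of FPKM + 1 in LPS over Control on the vertical axis. Filled points passed adjusted p below 0.05, the dashed line is the median of all tested genes at 0.16, and the filled points reach 2.66 for Eif5, with Eif4ebp2 and Eef1akmt1 alone filled below 0.

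Eif6 and Eif1ad were grouped here with the factors of the ternary complex and of start codon choice. Of these 12 members 7 rose (58.3%) and 0 fell, beside 26.6% and 12% of all tested genes. Under median-ratio scaling 6 of the 12 rose and 0 fell. Eif6, which keeps the large ribosomal subunit apart from the small one and acts in its assembly (chromosome 2, 155819832 to 155826925, minus strand), had 59.97, 68.7, 34.1 and 42.9 FPKM in LPS libraries, against 13.01, 13.2, 11.6 and 13.3 FPKM in Control libraries. The Control values lay within a narrow range, far below every LPS library. The log2 fold change was 1.88 ± 0.20 (adjusted p = 3.7e-05). Eif1a, an autosomal copy of eIF1A, which opens the small subunit for scanning, had 32.05, 38.9, 21.9 and 22.6 FPKM with LPS, against 10.01, 9.51, 6.93 and 7.37 FPKM in Control (limma log2 change 1.63 ± 0.19, adjusted p = 5.9e-05). For both genes LPS replicates 1 and 2 were above LPS replicates 3 and 4, and neither overlapped Control. Its X-linked relative Eif1ax was 14.2, 14.6, 12.8 and 13.9 FPKM with LPS and 14.9, 14.3, 12.4 and 13.9 FPKM in Control, a log2 difference of 0.00 ± 0.09 (95% interval -0.19 to 0.19). The coding sequences of Eif1a and Eif1ax share 85.5% of their bases, and the longest run their listed transcripts have in common is 28 bases.

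Eif2s2 and Eif2s1, the beta and alpha subunits of eIF2, rose together. Eif2s2 had 60.3, 71.5, 44.7 and 52.5 FPKM in LPS libraries, against 28.5, 32.3, 29.6 and 26.5 FPKM in Control libraries (log2 fold change 0.93 ± 0.13, adjusted p = 0.00027). Eif2s1, the subunit that the stress kinases phosphorylate, had 19.1, 19.02, 17.4 and 18.7 FPKM with LPS, against 11.8, 11.1, 11.4 and 11.1 FPKM in Control (limma log2 change 0.66 ± 0.08, adjusted p = 9.0e-05). Both groups were tight for Eif2s1, and the lowest LPS library stood well above the highest Control library. Eif1, which guards start codon choice, rose less, with 308, 225, 202 and 198 FPKM in LPS libraries, against 174, 179, 169 and 191 FPKM in Control libraries (log2 fold change 0.36 ± 0.12, adjusted p = 0.037). LPS replicate 1 was the highest of them, and the call was lost under 8 of 22 other settings, with adjusted p up to 0.29 under median-ratio scaling. Among them were the fits without LPS replicate 1 or 2 or Control replicate 1, 2 or 3 (adjusted p = 0.053 to 0.086, log2 fold change 0.22 to 0.37). Eif2d, which can place the initiator tRNA without eIF2, was 11.1, 6.81, 14.1 and 10.5 FPKM with LPS and 9.23, 9.93, 11.03 and 10.9 FPKM in Control (limma log2 change 0.01 ± 0.18, adjusted p = 0.97).

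Eif5, the protein that makes eIF2 split its GTP at the start codon (chromosome 12, 111538016 to 111546752, plus strand), had the largest fold change of the members. It had 52.1, 69.8, 36.2 and 47.6 FPKM in LPS libraries, against 3.96, 17.7, 3.86 and 8.34 FPKM in Control libraries (log2 fold change 2.66 ± 0.55, adjusted p = 0.0027). The groups did not overlap, but Control values spread 4.57-fold, and LPS+XJDHT libraries held 36.8, 41.5, 40.6 and 7.36 FPKM with replicate 4 inside the Control range. The spread lay in transcript Eif5-212, which was listed at 45.2, 62.7, 33.9 and 42.8 FPKM in LPS libraries, against 0, 14.2, 0 and 3.09 FPKM in Control libraries. Its value was 0 in Control replicates 1 and 3 and in LPS+XJDHT replicate 4. The files also list assembled transcripts with no gene name, which were not used here, and whether these hold fragments of Eif5, or of Eif3c and Eif4e below, was not tested. The fold change of Eif5 stands under that limit.

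eIF2B, the factor that recharges eIF2 with GTP and that phosphorylated eIF2 blocks, rose in 4 of its 5 subunits. Over all tested genes 26.6% rose, and under median-ratio scaling 4 of the 5 subunits rose. Eif2b2, its beta subunit, had 19.2, 21.2, 14.2 and 21.7 FPKM with LPS, against 8.76, 9.67, 9.81 and 10.4 FPKM in Control (limma log2 change 0.90 ± 0.13, adjusted p = 0.00024). Eif2b3, of the gamma subunit, rose by a log2 fold change of 0.82 ± 0.16, Eif2b5, of the catalytic epsilon subunit, by 0.55 ± 0.09 and Eif2b1, of the alpha subunit, by 0.53 ± 0.10. The delta subunit Eif2b4 did not share the pattern, with 13.1, 9.34, 11.9 and 6.27 FPKM in LPS libraries and 14.4, 11.2, 12.7 and 15.2 FPKM in Control libraries (log2 fold change -0.40 ± 0.23, adjusted p = 0.18). LPS replicate 4 was the lowest of its 8 values.

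Of the 3 eIF2 kinases in the set, 2 rose, beside 26.6% of all tested genes, and 1 rose under median-ratio scaling. Eif2ak4 encodes GCN2, the sensor of uncharged tRNA, and had 2.65, 2.23, 1.95 and 1.22 FPKM with LPS, against 0.845, 0.756, 1.30 and 1.16 FPKM in Control (limma log2 change 0.57 ± 0.16, adjusted p = 0.014). LPS replicate 4 lay within the Control range. Eif2ak3 encodes PERK, the sensor of the endoplasmic reticulum, and had 3.19, 2.95, 3.90 and 3.49 FPKM with LPS, against 2.07, 2.22, 2.48 and 2.91 FPKM in Control (limma log2 change 0.36 ± 0.12, adjusted p = 0.028). Its call was lost under 8 of 21 other settings, with adjusted p up to 0.14, and among them without LPS replicate 3 or 4 or Control replicate 1, 2 or 3 (adjusted p = 0.052 to 0.081). Eif2ak1, the haem-regulated kinase, was 8.15, 4.76, 8.51 and 8.62 FPKM with LPS and 7.44, 4.22, 7.16 and 7.57 FPKM in Control (limma log2 change 0.16 ± 0.21, adjusted p = 0.57), with replicate 2 the lowest in either group.

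Of the subunits of eIF3, the large scaffold on the small ribosomal subunit, 9 of 13 tested rose (69.2%) and 0 fell. Over all tested genes 26.6% rose and 12% fell. Under median-ratio scaling 6 of the 13 rose and 0 fell. Eif3b, a core subunit, had 64.3, 60.5, 45.1 and 50.6 FPKM in LPS libraries, against 26.8, 29.5, 29.5 and 28.1 FPKM in Control libraries (log2 fold change 0.92 ± 0.11, adjusted p = 7.2e-05). Eif3d, which can itself bind the cap of some mRNAs, had 42.9, 41.4, 32.9 and 35.9 FPKM with LPS, against 20.1, 20.4, 21.2 and 20.6 FPKM in Control (limma log2 change 0.85 ± 0.10, adjusted p = 4.8e-05). Eif3e had a log2 fold change of 0.81 ± 0.10, Eif3h of 0.59 ± 0.07, Eif3l of 0.52 ± 0.08 and Eif3g of 0.52 ± 0.08. Every LPS library was above every Control library for these 6 subunits, and the SD of the Control libraries was 0.450 FPKM around a mean of 20.6 FPKM for Eif3d. Eif3i, a WD-repeat subunit, was 26.3, 45.4, 36.3 and 37.6 FPKM with LPS and 32.3, 34.9, 33.05 and 34.6 FPKM in Control (limma log2 change 0.08 ± 0.16, adjusted p = 0.71).

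Several eIF3 genes could not be compared in this way, because their values jumped between libraries of 1 group. Eif3c, a core subunit, was 42.2, 2.12, 39.2 and 1.90 FPKM in LPS+XJDHT libraries, 41.6, 2.26, 40.9 and 2.63 FPKM in LPS libraries and 26.9, 1.84, 25.8 and 25.7 FPKM in Control libraries. Low values of 1.84 to 2.63 FPKM occurred in all 3 groups, and the other libraries were at 39.2 and 42.2 FPKM with LPS+XJDHT, 40.9 and 41.6 FPKM with LPS and 25.7 to 26.9 FPKM in Control. Eif3m had 77.9, 79.2, 78.1 and 77.2 FPKM with LPS, against 26.6, 62.3, 55.8 and 31.1 FPKM in Control (limma log2 change 0.91 ± 0.33, adjusted p = 0.046). The groups did not overlap, yet the call was lost under 12 of 22 other settings, with adjusted p up to 0.13. It held in 3 of the 12 fits without 1 library, those without LPS+XJDHT replicate 2 or Control replicate 2 or 3, and the other 9 gave adjusted p = 0.051 to 0.13. Eif3j1 and Eif3j2 are near-identical copies: their coding sequences are identical over 786 aligned bases and their transcripts share a run of 1107 bases, so counting cannot divide reads between them with certainty. Their sum was 13.2, 3.03, 19.3 and 20.02 FPKM in LPS libraries and 8.55, 15.1, 18.4 and 18.7 FPKM in Control libraries, with overlapping groups.

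**Figure D2:**
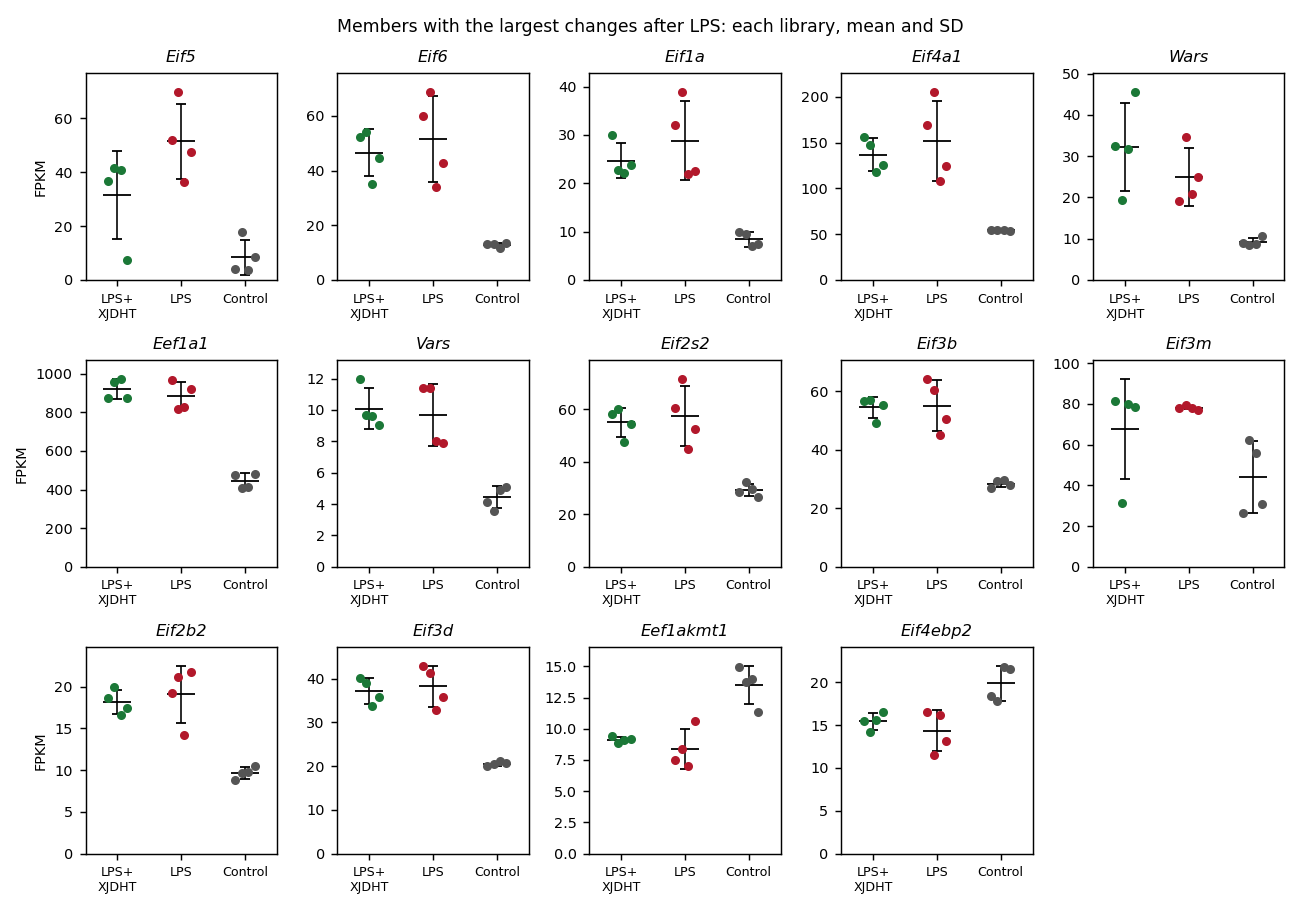
FPKM of each library (points) with the mean and SD of 4 libraries (bars) for the 12 members with the largest rises by the rule and for Eef1akmt1 and Eif4ebp2, which fell; each panel starts at 0. The rule took only members whose LPS points lie wholly above or wholly below the Control points. For Eif5 and Eif3m 1 LPS+XJDHT library lies in the Control range.

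In the eIF4 group, which binds the cap and unwinds the mRNA, 4 of 13 members (30.8%) rose and 1 fell, a share near the 26.6% of all tested genes that rose. Eif4a1, the RNA helicase of the cap complex (chromosome 11, 69666936 to 69672423, minus strand), had 169.5, 205, 108 and 125 FPKM in LPS libraries, against 54.1, 54.8, 54.3 and 52.99 FPKM in Control libraries. The 4 Control values were nearly equal, and every LPS value lay far above them. Its log2 fold change was 1.43 ± 0.17 (adjusted p = 8.2e-05). Eif4b, which stimulates that helicase, rose by 0.58 ± 0.10 on the log2 scale, Eif4a3, the helicase of the exon junction complex, by 0.44 ± 0.12 and Eif4h, a relative of Eif4b, by 0.39 ± 0.08. Eif4ebp2, which sequesters the cap-binding protein, fell, with 16.5, 11.5, 16.2 and 13.1 FPKM in LPS libraries, against 18.4, 17.8, 21.7 and 21.5 FPKM in Control libraries (log2 fold change -0.45 ± 0.12, adjusted p = 0.012).

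The cap-binding proteins and the scaffolds of the cap complex did not pass the test. Eif4e, the main cap-binding protein, was 15.5, 17.04, 0.0273 and 3.40 FPKM with LPS and 5.11, 8.69, 6.20 and 4.79 FPKM in Control. LPS values lay both above and below the whole Control range. Eif4g1, the principal scaffold, was 16.02, 24.7, 6.85 and 25.8 FPKM with LPS and 21.2, 23.3, 15.3 and 30.9 FPKM in Control (limma log2 change -0.40 ± 0.43, adjusted p = 0.49), and Eif4g3, its relative, was 4.49, 5.71, 5.46 and 4.67 FPKM with LPS and 5.30, 0.446, 5.87 and 6.39 FPKM in Control (adjusted p = 0.6). Eif4g2, a scaffold that cannot bind Eif4e, was 71.6, 65.8, 133 and 97.2 FPKM with LPS and 105, 103, 111 and 111 FPKM in Control (limma log2 change -0.28 ± 0.22, adjusted p = 0.34). Its long transcript Eif4g2-213 was lower with LPS, at 43.5, 29.9, 35.3 and 78.8 FPKM in LPS libraries, against 99.2, 95.2, 79.8 and 104 FPKM in Control libraries, a description with no test. Eif4e3, a cap-binding relative, was 24.01, 25.5, 21.3 and 19.7 FPKM with LPS and 17.9, 16.9, 19.1 and 19.3 FPKM in Control (limma log2 change 0.28 ± 0.12, adjusted p = 0.086), and Eif4e2, which represses translation, was 9.56, 7.71, 17.8 and 6.58 FPKM with LPS and 13.5, 13.5, 12.6 and 12.3 FPKM in Control (adjusted p = 0.37). In all, 12 members differed over 4-fold between libraries of 1 group (Eif3a, Eif3c, Eif3j1, Eif3j2, Eif4e, Eif4enif1, Eif4g3, Eif5, Eef1a2, Eef2k, Farsa and Gars), and of the 11 tested among them 2 rose, Eif5 and Eef1a2. Of the other 69 tested members 44 rose and 2 fell.

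**Figure D3:**
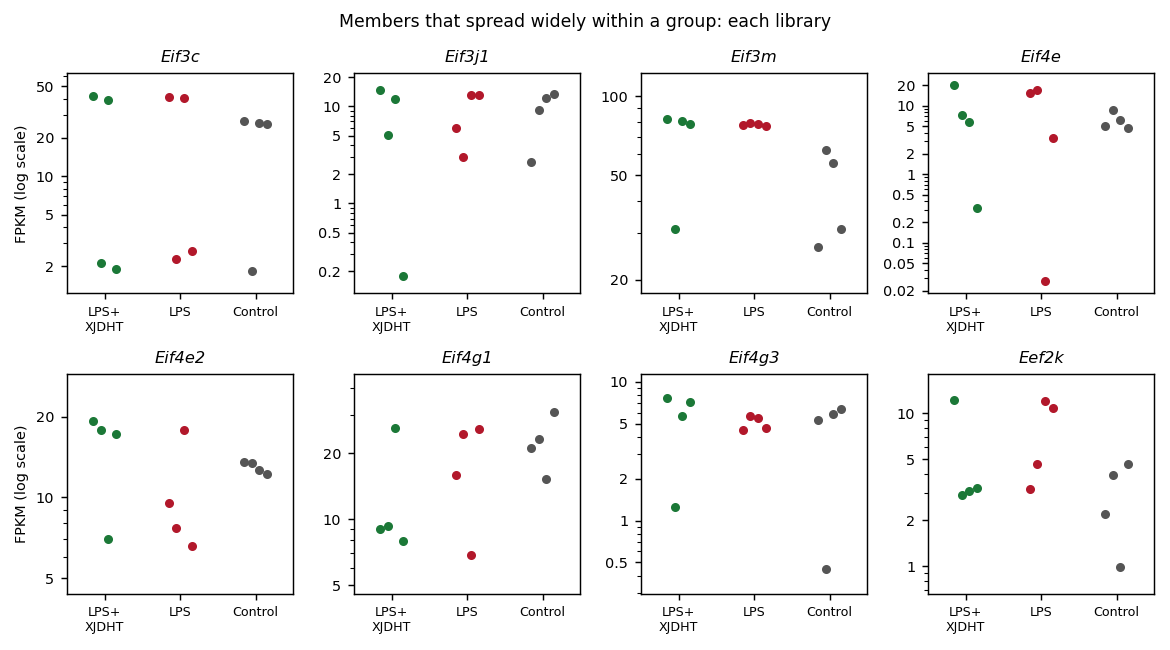
FPKM of each library on a log axis for 8 members that spread widely within a group or lie apart in 1 or more libraries. Eif3c is either at 1.84 to 2.63 FPKM or at 25.7 FPKM and above in each group, and Eif4e spans 0.0273 to 17.0 FPKM in the LPS libraries.

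Of the elongation factors, 4 of 6 eEF1 genes rose and 0 fell, beside 26.6% and 12% of all tested genes. Under median-ratio scaling 2 of the 6 rose. Eef1a1, the most abundant member per length (chromosome 9, 78478449 to 78489151, minus strand), had 969, 818, 827 and 919.6 FPKM in LPS libraries, against 477, 407, 412 and 479.9 FPKM in Control libraries. All LPS values lay well above all Control values (log2 fold change 0.99 ± 0.08, adjusted p = 5.3e-06). Eef1b2, a subunit that recharges eEF1A with GTP, had 74.9, 69.8, 66.9 and 72.1 FPKM with LPS, against 47.6, 52.3, 47.6 and 46.9 FPKM in Control (limma log2 change 0.54 ± 0.07, adjusted p = 8.9e-05), and Eef1g, its partner, rose by 0.30 ± 0.09 on the log2 scale. Eef1d, another exchange subunit, was 17.5, 23.4, 22.9 and 16.5 FPKM with LPS and 19.5, 20.3, 22.8 and 17.4 FPKM in Control (limma log2 change -0.00 ± 0.14, 95% interval -0.30 to 0.30). Eef1akmt1, a lysine methyltransferase of eEF1A, fell, with 7.49, 8.41, 7.03 and 10.6 FPKM with LPS, against 14.96, 13.7, 13.99 and 11.4 FPKM in Control (limma log2 change -0.64 ± 0.12, adjusted p = 0.002).

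Eef2, the translocase, had 589, 474, 587 and 505 FPKM in LPS libraries, against 382, 371, 373 and 402 FPKM in Control libraries (log2 fold change 0.49 ± 0.08, adjusted p = 0.00074). Eef2k, the kinase that inhibits it, was 3.19, 4.70, 12.01 and 10.9 FPKM with LPS and 2.20, 3.96, 0.990 and 4.63 FPKM in Control (limma log2 change 1.09 ± 0.49, adjusted p = 0.1). LPS replicates 3 and 4 were above every Control library and replicates 1 and 2 were not. Eif5a, the hypusine-bearing factor that relieves stalled ribosomes, had 225, 229.8, 209 and 194 FPKM with LPS, against 122, 123, 136 and 128 FPKM in Control (limma log2 change 0.75 ± 0.07, adjusted p = 2.1e-05). Its transcript Eif5a-209 held 54.7% ± 11.7 of the gene's FPKM in LPS libraries and 2.62% ± 1.12 in Control libraries (SD, n = 4), and 26.9% ± 22.6 in LPS+XJDHT libraries. This share was not tested, and values of Eif5a transcripts jumped within a group. Eif5a-207 was 1.515, 60.8, 0.556 and 0.0459 FPKM in Control libraries and 3.195, 124.8, 87.1 and 3.065 FPKM in LPS+XJDHT libraries. Its rare paralog Eif5a2 also rose, to 1.36 ± 0.493 FPKM with LPS, against 0.526 ± 0.167 FPKM in Control (SD, n = 4; adjusted p = 0.013).

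Of the 20 cytosolic synthetases, 12 rose (60%) and 0 fell, beside 26.6% and 12% of all tested genes. The median of their log2 fold changes was 0.46. Under median-ratio scaling 10 of the 20 rose and 0 fell, and Dars and Lars lost their call. Wars, which loads tryptophan (chromosome 12, 108860030 to 108894174, minus strand), had 19.02, 34.7, 20.9 and 24.9 FPKM in LPS libraries, against 8.90, 8.50, 8.79 and 10.6 FPKM in Control libraries. Every LPS value lay above every Control value (log2 fold change 1.31 ± 0.23, adjusted p = 0.0011). Transcript Wars-204 was 10.4, 12.8, 11.7 and 13.7 FPKM with LPS, against 0.763, 1.47, 1.04 and 2.31 FPKM in Control, while Wars-201 was 2.34, 12.4, 8.47 and 10.3 FPKM with LPS and 6.22, 6.05, 7.19 and 7.72 FPKM in Control. Wars-204 made up 50.6% ± 9.26 of the gene in LPS libraries and 14.9% ± 5.85 in Control libraries (SD, n = 4). Vars, for valine, had 11.4, 11.4, 8.003 and 7.89 FPKM with LPS, against 4.16, 3.56, 4.87 and 5.10 FPKM in Control (limma log2 change 0.97 ± 0.15, adjusted p = 0.00048). Nars, for asparagine, rose by 0.78 ± 0.11 on the log2 scale, Sars, for serine, by 0.73 ± 0.09, Kars, for lysine, by 0.71 ± 0.08 and Hars, for histidine, by 0.66 ± 0.12. Every LPS library was above every Control library in 12 of the 20 synthetases, those that rose, beside 25.3% of all tested genes. Of the risen synthetases, Tars, Rars, Eprs, Iars, Lars and Dars had log2 fold changes between 0.39 and 0.58.

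The synthetases whose windows hold the C/EBP-ATF element shown above were split. Tars, for threonine, had 10.9, 10.8, 9.54 and 10.3 FPKM with LPS, against 7.41, 6.50, 6.04 and 6.62 FPKM in Control, and Iars, for isoleucine, had 18.3, 15.9, 14.9 and 15.2 FPKM with LPS, against 10.8, 11.04, 12.01 and 12.3 FPKM in Control. Both rose without overlap between the groups. Aars, for alanine, was 2.42, 2.75, 2.01 and 2.23 FPKM with LPS and 1.73, 2.32, 1.77 and 2.29 FPKM in Control (limma log2 change 0.15 ± 0.15, adjusted p = 0.45), and Yars, for tyrosine, was 7.68, 13.8, 6.83 and 9.03 FPKM with LPS and 7.51, 7.57, 8.13 and 9.99 FPKM in Control (limma log2 change 0.12 ± 0.21, adjusted p = 0.7). Gars, for glycine, was listed in all files by 1 retained-intron transcript alone, at 0.0464 to 6.99 FPKM with LPS and 1.39 to 4.09 FPKM in Control, so its coding mRNA was not measured here. Wars and Vars had no window. Farsa and Farsb, the subunits for phenylalanine, spread from 6.95 to 11.1 FPKM and from 10.9 to 24.9 FPKM with LPS and from 1.62 to 8.001 and from 9.63 to 19.3 FPKM in Control, and did not pass the test.

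Eif4a2, the paralog of Eif4a1, was 73.9, 44.6, 63.2 and 63.7 FPKM in LPS libraries and 58.5, 57.6, 56.02 and 57.6 FPKM in Control libraries (log2 fold change 0.07 ± 0.17, adjusted p = 0.77), with LPS values on both sides of a narrow Control range. Eif4a2 made up 29.7% ± 8.38 of Eif4a1 and Eif4a2 together in LPS libraries and 51.5% ± 0.623 in Control libraries (SD, n = 4), with no overlap. The exact two-sided permutation test gave p = 0.0286, the smallest that 4 against 4 can give, and 0.107 after adjustment over 15 share tests. In LPS+XJDHT libraries the share was 30.9% ± 6.78. The Eif4a2 transcript that the annotation marks for nonsense-mediated decay, Eif4a2-204, was 7.41, 8.75, 9.55 and 10.7 FPKM with LPS, against 3.60, 1.23, 2.62 and 3.21 FPKM in Control, a share of the gene of 15.4% ± 4.03 and 4.63% ± 1.77. The pair can be told apart by its sequence: the coding sequences share 77.4% of 1086 aligned bases and no run over 20 bases. Their most alike ungapped stretch of 90 coding bases (from base 503 of Eif4a1 on chromosome 11 and base 506 of Eif4a2 on chromosome 16, counted from the start codon) differs at 12 positions, in capitals.
Eif4a1 coding: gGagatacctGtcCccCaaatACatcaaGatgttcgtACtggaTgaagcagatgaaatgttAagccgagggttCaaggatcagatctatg
Eif4a2 coding: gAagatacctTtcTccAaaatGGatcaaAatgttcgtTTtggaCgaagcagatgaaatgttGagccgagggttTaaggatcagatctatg

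For eEF1A the muscle form was the less regular. Eef1a2 (chromosome 2, 181147653 to 181157014, minus strand) was 276, 196, 278 and 294 FPKM in LPS+XJDHT libraries and 99.9, 58.4, 290.1 and 233 FPKM in LPS libraries, against 55.6, 52.2, 77.3 and 70.2 FPKM in Control libraries. LPS replicates 3 and 4 and the LPS+XJDHT libraries were far above Control, LPS replicate 1 was between, and LPS replicate 2 lay within the Control range. The rise after LPS (log2 fold change 1.15 ± 0.41, adjusted p = 0.044) was lost under 14 of 22 other settings, with adjusted p up to 0.12. It held in 2 of the 12 fits without 1 library, those without LPS replicate 1 or 2, and the other 10 gave adjusted p = 0.051 to 0.12 and log2 fold changes of 0.81 to 1.25. Against Control, LPS+XJDHT gave a log2 fold change of 2.02 ± 0.41 (adjusted p = 0.0025). Eef1a2 made up 22.1% ± 3.62 of both forms in LPS+XJDHT libraries, 15.6% ± 9.1 in LPS libraries and 12.6% ± 2.34 in Control libraries (SD, n = 4), with an exact permutation p of 0.571 for LPS against Control and 0.0286 for LPS+XJDHT against Control, or 0.779 and 0.107 adjusted. The difference in share between LPS and Control was 2.97 percentage points, and without 1 library it ran from -0.505 (without LPS replicate 3) to 5.93 (without LPS replicate 2). Between LPS+XJDHT and LPS it was 6.52 points, and ran from 3.56 (without LPS replicate 2) to 10 (without LPS replicate 3). The coding sequences share 80.1% of 1389 bases with no run over 23 bases, and their most alike 90 bases (55 to 144 of each, on chromosomes 9 and 2) differ at 9 positions, in capitals.
Eef1a1 coding: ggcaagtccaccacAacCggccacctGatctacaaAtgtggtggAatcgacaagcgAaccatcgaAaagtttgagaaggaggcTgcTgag
Eef1a2 coding: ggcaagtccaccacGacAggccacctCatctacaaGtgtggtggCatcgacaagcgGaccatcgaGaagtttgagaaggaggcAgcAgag

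Eif1b, a near relative of Eif1 with 81.3% of coding bases in common, was 24.1, 21.1, 18.4 and 20.3 FPKM with LPS and 20.2, 22.3, 20.6 and 19.6 FPKM in Control (limma log2 change 0.01 ± 0.12, 95% interval -0.24 to 0.27). Its share of Eif1 and Eif1b was 8.37% ± 0.849 in LPS libraries and 10.4% ± 0.777 in Control libraries (exact permutation p = 0.0286, adjusted 0.107). The shares of Eif4e3 among the 3 cap-binding genes, 55.1% ± 7.84 with LPS and 49.0% ± 4.15 in Control, and of Eif5a2 beside Eif5a, 0.621% ± 0.187 with LPS and 0.415% ± 0.139 in Control, overlapped between groups (exact permutation p = 0.229 and 0.2, SD, n = 4).

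**Figure D4:**
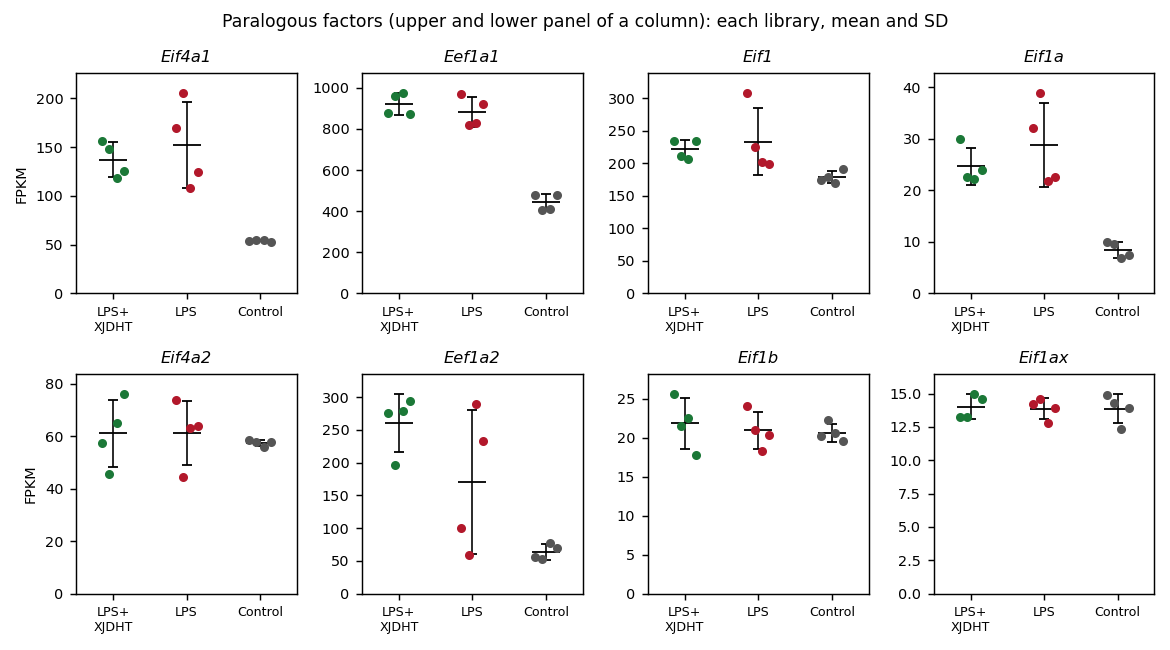
FPKM of each library (points) with mean and SD of 4 libraries (bars) for 4 pairs of related factors, one pair per column, each axis starting at 0. Eif4a1, Eef1a1, Eif1 and Eif1a are higher in every LPS than in every Control library, the LPS points of Eif4a2, Eif1b and Eif1ax overlap those of Control, and Eef1a2 ranges from 58.4 to 290.1 FPKM in the LPS libraries.

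XJDHT did not move a member past the threshold in LPS-treated mice. In LPS+XJDHT against LPS, 0 of 80 members rose and 0 fell by limma, and 0 had an unadjusted p under 0.05. Among all tested genes 0% rose and 0.113% fell. The latter were 13 genes, of which 8 were small intestine markers. The median log2 difference of the members was 0.02. For 74 of the 80 the difference was within 0.5 on the log2 scale, and for 65 the 95% interval lay within 1 on either side of 0. The 5 members with the smallest p were Eef1a2, with a log2 difference of 0.86 ± 0.41 (adjusted p = 0.99), Aars with 0.28 ± 0.15 (adjusted p = 0.99), Eif2b1 with -0.17 ± 0.10 (adjusted p = 0.99), Eif2b3 with -0.27 ± 0.16 (adjusted p = 0.99) and Eif5 with -0.90 ± 0.55 (adjusted p = 0.99), by limma. Aars was 3.46, 3.38, 3.42 and 2.10 FPKM in LPS+XJDHT libraries, with replicate 4 at the level of LPS. Eif2b1 was 12.1, 11.4, 10.9 and 11.3 FPKM with LPS+XJDHT, against 13.4, 13.9, 11.3 and 13.5 FPKM with LPS, and the ranges met. Eif6 was 52.1, 54.1, 35.1 and 44.5 FPKM, Eif4a1 156, 148, 118 and 125 FPKM and Wars 32.4, 19.4, 31.8 and 45.5 FPKM in LPS+XJDHT libraries, all above every Control library.

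Against Control, LPS+XJDHT raised 48 of 80 members and lowered 2, Eef1akmt1 and Eif4ebp2, while 28.5% of all tested genes rose and 10.7% fell. This comparison shares its Control libraries with that of LPS. The calls differed for Eif1 and Eif3m, which passed with LPS alone, and for Eif1ad, Eif4e3, Aars and Mars1, which passed with LPS+XJDHT alone, and the difference between the 2 treatments was under the threshold for each of them. Without LPS+XJDHT replicate 2, 46 members rose and 1 fell.

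The rest of the translation apparatus was read from lists of other genes. Of 25 ribosome biogenesis genes, 14 rose (56%) and 0 fell with LPS (median log2 fold change 0.62). Of all tested genes 26.6% rose and 12% fell. Under median-ratio scaling 12 of the 25 rose and 0 fell. Myc, a transcription factor of growth genes that binds the E-box, was 16.3, 8.96, 5.45 and 6.33 FPKM in LPS libraries, against 1.59, 1.33, 0.698 and 1.84 FPKM in Control libraries (log2 fold change 2.03 ± 0.28, adjusted p = 0.00021). Nhp2, of the snoRNPs that modify ribosomal RNA, had 35.4 ± 9.94 FPKM with LPS, against 10.4 ± 1.45 FPKM in Control, Npm1, the nucleolar chaperone nucleophosmin, 121 ± 18.2 against 53.8 ± 4.71 FPKM, and Ddx21, a nucleolar helicase, 28.2 ± 8.60 against 11.01 ± 0.740 FPKM (SD, n = 4). Of 12 genes of termination, recycling and rescue 6 rose and 0 fell (3 rose and 1 fell under median-ratio scaling), among them the release factors Etf1 (54.1 ± 4.36 FPKM with LPS, against 34.4 ± 1.0 FPKM in Control) and Gspt1, the recycling ATPase Abce1 (32.5 ± 6.98 FPKM with LPS, against 17.97 ± 1.03 FPKM in Control) and Ltn1, a ligase that clears stalled chains. Of 16 genes that bind the poly(A) tail or regulate the cap 3 rose (18.8%, below the 26.6% of all tested genes) and 0 fell, or 3 and 1 under median-ratio scaling: Pabpc1, the cytoplasmic poly(A)-binding protein, at 56.5 ± 9.26 FPKM with LPS, against 28.1 ± 3.15 FPKM in Control, Mknk1, a kinase of Eif4e, and Ddx3x, an RNA helicase. Of 11 genes for the synthetase scaffold and for hypusine or diphthamide 3 rose and 0 fell, Aimp1, Dph3 and Dph6, with log2 fold changes of 0.40 to 0.43. That share, 27.3%, was about the 26.6% of all tested genes, and under median-ratio scaling 0 rose and 1 fell.

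Mitochondrial translation factors that passed the test were lower with LPS, while few mitochondrial synthetases passed it. Of all tested genes 26.6% rose and 12% fell. Of 10 mitochondrial translation factors 0 rose and 5 fell (median log2 fold change -0.29), against 34 risen and 2 fallen of 60 cytosolic factors. Tsfm, the exchange factor of the mitochondrial elongation factor, had 8.76, 8.97, 10.8 and 7.37 FPKM with LPS, against 16.2, 16.9, 17.8 and 17.7 FPKM in Control (limma log2 change -0.87 ± 0.11, adjusted p = 0.0001). Tufm, that elongation factor, had 39.3, 27.8, 39.6 and 42.1 FPKM with LPS, against 55.7, 55.4, 63.1 and 72.97 FPKM in Control (limma log2 change -0.73 ± 0.13, adjusted p = 0.0012). No library of the LPS group reached a Control library for either gene. Mtif2, the mitochondrial initiation factor 2, was 7.99 ± 1.24 FPKM with LPS, against 14.4 ± 1.81 FPKM in Control, and Mtrf1l, a release factor, was 1.16 ± 0.276 FPKM with LPS, against 2.76 ± 0.537 FPKM in Control (SD, n = 4). Among 16 mitochondrial synthetases 1 rose, Iars2 (log2 fold change 0.30 ± 0.09), and 3 fell, among them Aars2 (-0.93 ± 0.14) and Cars2 (-0.77 ± 0.26), with a median of -0.27 against 0.46 for the cytosolic enzymes. Under median-ratio scaling 0 mitochondrial synthetases rose and 9 fell, and 0 factors rose and 5 fell. Of all tested genes 18.5% rose and 18.5% fell under that scaling. The difference between the lists was not tested, and the cardiomyocyte marker sum, which was lower with LPS in every library, moved in the same direction.

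**Figure D5:**
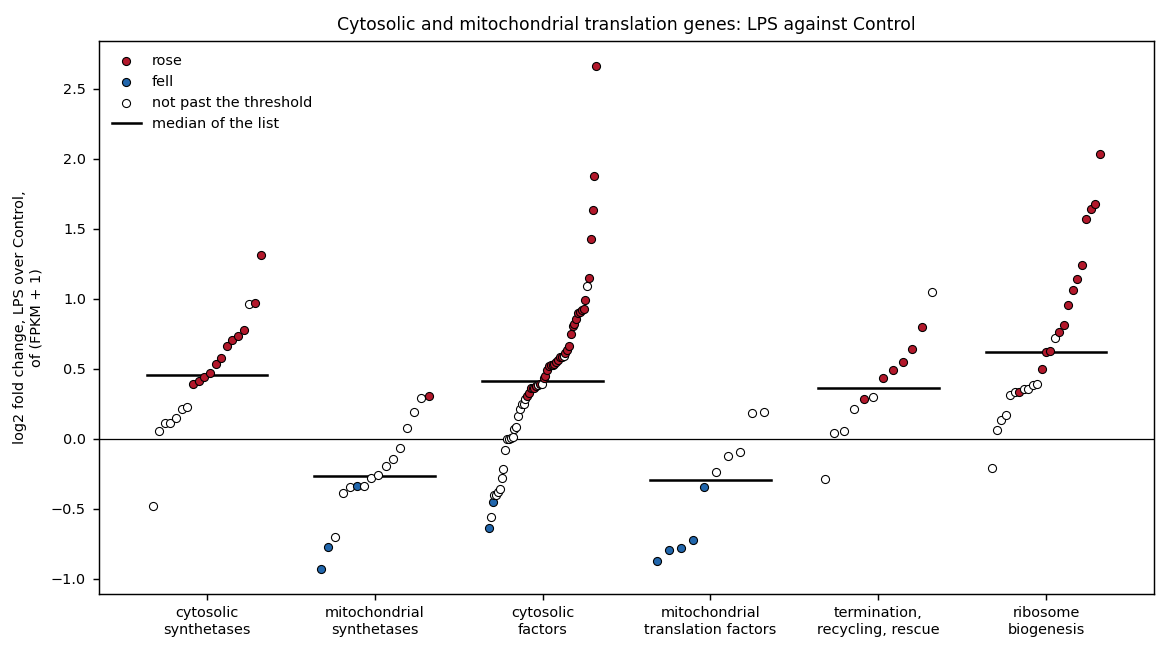
Each point is a gene, by list on the horizontal axis and by log2 fold change of FPKM + 1 in LPS over Control on the vertical axis; filled points passed adjusted p below 0.05 and bars are list medians. The medians of the cytosolic synthetases (0.46), cytosolic factors (0.41) and ribosome biogenesis genes (0.62) lie above 0, and those of the mitochondrial synthetases (-0.27) and factors (-0.29) below 0.

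Genes of the ATF4 programme were mixed. Of 23 tested, 9 rose (39.1%) and 2 fell with LPS, beside 26.6% and 12% of all tested genes. The median of their log2 fold changes was 0.19. Under median-ratio scaling 6 rose and 4 fell, and the median was 0.0077. Psat1, of serine synthesis, had 4.90, 8.94, 5.76 and 4.71 FPKM in LPS libraries, against 1.67, 1.12, 1.18 and 1.24 FPKM in Control libraries (log2 fold change 1.59 ± 0.20, adjusted p = 0.00012). Slc7a11, the cystine transporter, was 0.977 ± 0.401 FPKM with LPS, against 0.0257 ± 0.0169 FPKM in Control, and Ppp1r15b, a subunit of the phosphatase that restores eIF2, was 13.4 ± 3.89 FPKM with LPS, against 6.46 ± 0.196 FPKM in Control (SD, n = 4). Cebpg, a C/EBP partner of ATF4, fell, with 0.968, 1.32, 1.87 and 1.08 FPKM with LPS, against 9.27, 7.87, 9.21 and 9.06 FPKM in Control (limma log2 change -2.11 ± 0.16, adjusted p = 3.8e-06). Atf4 itself had a log2 fold change of 0.35 ± 0.18 (adjusted p = 0.15), Ddit3, its partner CHOP, of -0.44 ± 0.18 (adjusted p = 0.074) and Trib3, a target, of -0.12 ± 0.15 (adjusted p = 0.55), 3 genes chosen after their values were seen. Of 14 genes of mTOR, S6 kinase and AMPK 3 rose (21.4%) and 2 fell, near the 26.6% and 12% of all tested genes, and under median-ratio scaling 3 rose and 3 fell: Deptor (0.78 ± 0.11), Mtor (0.82 ± 0.17) and Rps6kb2 (0.70 ± 0.19) rose on the log2 scale, and Rps6kb1 (-1.33 ± 0.42), the main S6 kinase, fell, as did Rptor (-0.30 ± 0.10), the mTOR partner named to complete the count.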

How the data were processed

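Ribosome-depleted total RNA of 12 mouse hearts was compared in 3 groups of 4, taken from the labels. The authors deposited FPKM values per transcript, a unit read from the values, since multiplying by transcript length gave whole multiples of 1 step per library (98.8% to 99.18% of values came out whole to within 0.1). The step gave the depth, 73.8 to 77.8 M fragments (M, mega). The submitters' processing notes name mm10 and limma but not what they were used for; the aligner was not given in the sources used here. FPKM were summed over the 24723 GENCODE M21 transcripts listed in all files, and assembled transcripts without a gene were left out. Mars1 is named Mars in that annotation. Genes with at least 1 FPKM in 4 libraries were tested on log2(FPKM + 1) with limma 3.58.1 (R 4.3.3; 1 mean per group, all 12 libraries, empirical Bayes with trend), two-sided, Benjamini-Hochberg adjusted over 11509 genes. Fold changes of low genes are understated on this scale. Each library has an animal number of its own as its title, p-values measure the spread between these libraries, and replicate numbers pair no samples. The fit was tested on simulated data for LPS against Control. There 68 of 100 genes changed by 1 and 94 of 100 changed by 2 on the log2 scale were recovered. False calls were 7 among 10949 genes. The simulation drew independent normal noise with each gene's spread and changed only those genes. Jumps of single libraries to near 0 and changes in many genes at once were not simulated, so the rates hold for that setting. Paralog shares used exact permutation tests. Figures and sequences used Python 3.11.15, matplotlib 3.10.9 and Biopython 1.88.

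The members and lists were chosen with earlier results of these data known. Named members were up to 12 each way with the largest significant change whose LPS and Control libraries did not overlap and whose higher mean reached 5 FPKM, the 5 with the smallest p in LPS+XJDHT against LPS, the paralogs, 10 chosen genes of regulation, and up to 4 genes of each other list with the smallest adjusted p; genes outside this rule are given as members of their complex. Alternatives were no filter, 5 FPKM, pseudocounts of 0.1 and 0.5, the compared groups alone, sample quality weights, limma-voom on fragments recovered from the steps, scaling by median ratios, protein_coding transcripts, the full transcript list of the Control and LPS files, and each library left out.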

Additional observations from a re-analysis of the deposited data

Results flagged for a closer look

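Among 34 named members in 3 groups each, 102 sets of 4 libraries were examined for 1 library far from the other 3, and 8 were found, while chance marks about 1 in 20. Most lay in LPS+XJDHT. Low values there were Eif5 in replicate 4, at 7.36 FPKM against 36.8 to 41.5 FPKM in the other 3, Eif3m in replicate 2, at 31.2 FPKM against 78.3 to 81.6 FPKM, Aars in replicate 4, at 2.10 FPKM against 3.38 to 3.46 FPKM, and Eif4e2 in replicate 3, at 6.99 FPKM against 17.2 to 19.3 FPKM. High values were Eif4g1 in LPS+XJDHT replicate 3, at 26 FPKM against 7.92 to 9.31 FPKM, and Eef2k in LPS+XJDHT replicate 1, at 12.2 FPKM against 2.90 to 3.26 FPKM. Eif2ak1 was low in LPS replicate 2, at 4.76 FPKM against 8.15 to 8.62 FPKM, and in Control replicate 2, at 4.22 FPKM against 7.16 to 7.56 FPKM. These numbers do not pair animals.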

How the results depend on the processing

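The counts of risen and fallen members in LPS against Control stayed within 1.5 times of 46 and 2 under every setting tried apart from a minimum of 2-fold, which left 6 and 0. Without 1 library they were 40 to 47 and 2. Of the 46 risen members 34 kept their call under every alternative they were fitted in, as did both fallen ones, and 12 lost it under at least 1: Eef1a2, Eef1g, Eef2kmt, Eif1, Eif2a, Eif2ak3, Eif3f, Eif3k, Eif3m, Eif4a3, Dars and Lars. Eif2a lost it with protein_coding transcripts alone (adjusted p = 0.91), and Eef1g, Eif3k, Eif4a3, Dars and Lars with median-ratio scaling alone (adjusted p = 0.05 to 0.37). For all genes, median-ratio scaling moved the fallen to 2131 in LPS against Control, and leaving out 1 library gave 2542 to 3107 risen and 1104 to 1495 fallen.

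In LPS+XJDHT against Control, 8 members rose and 0 fell at 2-fold or more, 4 fell with median-ratio scaling and 1 with limma-voom, and without 1 library 40 to 49 rose and 1 to 2 fell. Over all genes median-ratio scaling gave 1954 risen and 2057 fallen, and without 1 library 2656 to 3428 rose and 999 to 1355 fell. In LPS+XJDHT against LPS, 0 members rose or fell under any setting tried. Of all genes 2 rose and 41 fell with no filter, 1 fell with a limit of 5 FPKM, 1 rose with a pseudocount of 0.1 and 3 rose with sample quality weights, and without 1 library 0 to 2 rose and 3 to 15 fell. The causes of these differences were not tested. A filtered or reduced fit also holds fewer genes or samples. With protein_coding transcripts alone no share test passed (exact permutation, lowest adjusted p = 0.14). Without 1 library the share tests were void, since exact permutation of 3 against 4 cannot go below p = 0.0571. No paired analysis was possible because the replicate numbers were given in accession order and pair no animals. Fold changes of members under a few FPKM, such as Eif5a2 and Eif2ak4, are understated on the scale used, and exact 0 values of single transcripts limit Eif5, Eif4e and Eif3j2.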
